A study of Mus musculus with 15 samples.

Results

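The regions described are stretches of the mouse genome that were accessible in haematopoietic stem cells (HSC) of WT control mice and had no peak in cells of either mTOR mutant. ATAC-seq marks such stretches by the cuts a transposase makes in open DNA, and a peak list gives the places where cuts pile up. The peak lists of KO, KI and WT libraries were merged where peaks overlapped or touched, which gave 32764 regions on chromosomes 1 to 19, X and Y. The members were chosen by their peaks: 1808 regions (5.52%, 95% Wilson interval 5.28 to 5.77) held a WT peak and neither a KO nor a KI peak. Each held exactly 1 WT peak, so a region and its WT peak are the same interval.

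All libraries came from sorted HSC of adult mice given poly(I:C), which induces the interferon-driven Mx1-Cre recombinase. The KO mice (Mx1-Cre+/-;mTORflox/flox) lose floxed Mtor. The KI mice (Mx1-Cre+/-;mTORflox/knockin) carry the same Cre, a floxed allele open to the same loss, and a knock-in allele. The WT controls (Mx1-Cre-/-;mTORflox/flox) carry the floxed alleles without Cre. There was 1 ATAC-seq library for each genotype, made from 50000 cells per transposition, so nothing below has a replicate check and no test between genotypes was possible. The 12 RNA samples of the series were not analysed here. WT lacks Cre and both mutants carry it, so an effect of Cre and one of the Mtor alleles cannot be told apart. Re-analysis of earlier data is noted for KO and WT but not for KI, and this difference in history cannot be told apart from the KI allele. Of 30 genes on a list of HSC markers and regulators, 21 had a WT peak inside them or at most 10 kb away, and so did 16 of 20 on a megakaryocyte list, 14 of 18 on a dendritic cell list, 19 of 30 on a granulocyte and monocyte list, 13 of 20 on a B cell list, 10 of 20 on an erythroid list and 7 of 22 on a T and NK cell list. Peaks near these genes therefore did not set the HSC list above all others.

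mTOR is a kinase that, in the complexes mTORC1 and mTORC2, couples nutrients and growth factor signals to protein synthesis, metabolism and autophagy. HSC are kept quiescent in part through restraint of this pathway. Open chromatin comprises promoters, often rich in CpG dinucleotides and open in most cell types, and distal elements such as enhancers, which differ more between cell types and states. The absence of a peak means that no signal passed the caller's threshold there. Weaker signal and no signal cannot be told apart in a peak list.

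Of the members, 174 lay over an annotated promoter window of RefSeq (GRCm38.p6, the assembly behind mm10), which runs from 250 bases before a transcription start to 50 after it. The windows under the 6 highest-scoring of these, and that of the HSC marker gene Procr, which was added after its values were seen, are printed 5′ to 3′ so that the kinds of promoter can be compared. Capitals mark letters that match, on either strand, the motif of SP, RUNX, AP-1, NFY, YY1, E-box, CREB, GATA or TATA factors, each spelled out below where its share is given. Zfp429 lies at chr13:67399718-67400017 (minus strand), the lncRNA B230206L02Rik at chr11:94133206-94133505 (plus strand), Larp1 at chr11:58008814-58009113 (plus strand), Rps6ka4 at chr19:6840578-6840877 (minus strand), Ndufa9 at chr6:126849095-126849394 (minus strand), the lncRNA Gm42190 at chr3:19953905-19954204 (minus strand) and Procr at chr2:155750967-155751266 (plus strand).
Zfp429: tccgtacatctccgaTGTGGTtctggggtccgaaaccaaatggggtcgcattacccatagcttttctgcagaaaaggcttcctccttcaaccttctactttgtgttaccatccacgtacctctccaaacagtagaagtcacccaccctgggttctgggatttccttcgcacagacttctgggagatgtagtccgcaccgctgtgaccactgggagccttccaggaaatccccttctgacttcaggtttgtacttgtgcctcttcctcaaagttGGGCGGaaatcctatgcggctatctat
B230206L02Rik: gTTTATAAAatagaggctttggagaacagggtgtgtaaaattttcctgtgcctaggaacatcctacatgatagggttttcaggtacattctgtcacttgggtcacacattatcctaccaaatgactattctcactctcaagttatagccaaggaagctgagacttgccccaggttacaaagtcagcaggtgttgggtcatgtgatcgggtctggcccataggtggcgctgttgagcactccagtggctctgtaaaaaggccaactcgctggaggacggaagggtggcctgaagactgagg
Larp1: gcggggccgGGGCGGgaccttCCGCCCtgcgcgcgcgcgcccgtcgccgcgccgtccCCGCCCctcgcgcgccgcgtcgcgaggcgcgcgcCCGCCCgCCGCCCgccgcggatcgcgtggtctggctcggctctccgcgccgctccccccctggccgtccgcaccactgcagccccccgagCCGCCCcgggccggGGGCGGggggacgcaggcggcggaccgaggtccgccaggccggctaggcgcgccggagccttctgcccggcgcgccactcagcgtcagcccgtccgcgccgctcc
Rps6ka4: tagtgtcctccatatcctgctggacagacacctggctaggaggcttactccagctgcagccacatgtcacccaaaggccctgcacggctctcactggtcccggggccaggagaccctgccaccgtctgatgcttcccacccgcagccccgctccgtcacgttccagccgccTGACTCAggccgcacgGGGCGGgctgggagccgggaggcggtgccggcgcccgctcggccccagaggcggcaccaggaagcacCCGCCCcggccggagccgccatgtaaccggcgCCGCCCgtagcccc
Ndufa9: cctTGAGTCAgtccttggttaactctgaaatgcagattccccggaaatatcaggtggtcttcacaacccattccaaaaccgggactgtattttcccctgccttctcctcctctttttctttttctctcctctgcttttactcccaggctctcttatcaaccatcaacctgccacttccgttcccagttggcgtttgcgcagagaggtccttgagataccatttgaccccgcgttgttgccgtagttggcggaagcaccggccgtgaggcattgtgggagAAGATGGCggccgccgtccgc
Gm42190: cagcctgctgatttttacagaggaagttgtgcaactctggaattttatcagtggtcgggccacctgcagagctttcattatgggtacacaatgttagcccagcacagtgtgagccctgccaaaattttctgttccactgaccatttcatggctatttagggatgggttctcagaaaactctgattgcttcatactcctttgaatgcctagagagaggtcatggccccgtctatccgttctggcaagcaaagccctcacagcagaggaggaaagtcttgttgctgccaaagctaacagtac
Procr: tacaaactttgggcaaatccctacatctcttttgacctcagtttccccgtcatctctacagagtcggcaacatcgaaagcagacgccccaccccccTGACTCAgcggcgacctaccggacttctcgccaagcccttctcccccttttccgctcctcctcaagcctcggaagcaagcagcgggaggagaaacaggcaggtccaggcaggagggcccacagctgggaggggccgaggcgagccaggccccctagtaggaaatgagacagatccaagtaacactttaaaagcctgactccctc

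The 7 windows differ in composition. The Larp1 window has a GC content of 85.3%, 61 CpG dinucleotides and 7 SP matches, and the Rps6ka4 window 71.7%, 26 CpG and 3 SP matches. The Zfp429, Ndufa9 and Procr windows are intermediate, at 51.0%, 53.3% and 58.3% GC with 10, 15 and 13 CpG. The lncRNA windows have 4 CpG (B230206L02Rik) and 3 CpG (Gm42190). The YY1 match of Ndufa9 begins at base 280 of the window, 29 bases past the start. The WT peak covered the whole window for Zfp429, Larp1, Rps6ka4 and Gm42190, bases 158 to 300 for B230206L02Rik, 133 to 300 for Ndufa9 and 145 to 300 for Procr. The marked TATA matches of B230206L02Rik and the AP-1 matches of Ndufa9 and Procr thus lay outside the WT peak.

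The WT values that chose these regions were low. Their scores, the authors' per-peak values, ran from 50.01 to 187.29 with a median of 59.9 (middle 50% from 54.5 to 69.0), against a median of 121 for the 12539 WT peaks in regions with a peak in all 3 lists. With the WT list cut by score into 4 equal classes, 1264 members, 69.9% of them (67.8 to 72.0), lay in the lowest class and 3 in the highest. Members made up 0 of the 1731 highest-scoring WT peaks (upper Wilson limit 0.221%) and 569 of the 1732 lowest-scoring ones, 32.9% (30.7 to 35.1). These are the ends of 10 equal score classes (1 the highest, 10 the lowest), and the share was larger in each class than in the one above it. For all regions with a WT peak it was 10.6%, and 25.5% of WT peaks had no KO peak and 13.1% no KI peak over them. These scores and shares belong to the same comparison as the choice of members and are a description only.

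**Figure D1:**
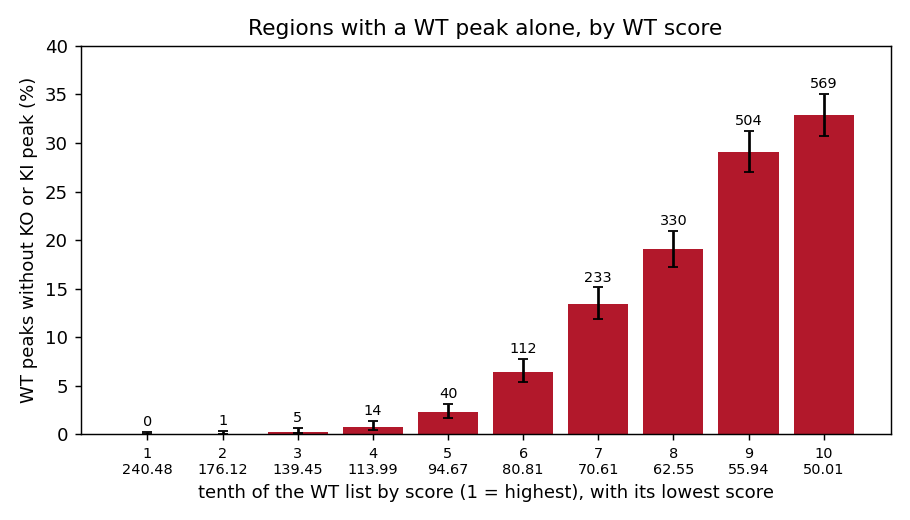
Share of WT peaks that had neither a KO nor a KI peak (y axis, percent) in each of 10 equal classes of the WT list by score (x axis, 1 is the highest, with the lowest score of each class below it). Bars carry 95% Wilson intervals over peaks, and the number of members stands above each bar: 0 in class 1 and 569 in class 10.

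Members were also narrow: their median width was 388 bp, against 675 bp for WT peaks in regions of all 3 lists. Width follows score, and within score class 10 the medians were 369 bp for members and 415 bp for peaks of all 3 lists. Members had the lower median in each of the other classes that held any, up to class 2, with 704 bp for its 1 member and 896 bp. Regions with a peak in another list alone were weak and narrow in their own lists as well. Of the WT-alone peaks 69.9% lay in the lowest of 4 score classes of their list, against 62.7% of the 2619 KO-alone peaks and 51.9% of the 9597 KI-alone peaks, whose median widths were 343 bp and 330 bp.

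Distance to mutant peaks is bound up with the rule and is given as a description. The nearest KO peak was a median of 23746 bp away, the nearest KI peak 14383 bp, and the nearer of them 13154 bp (middle 50% from 4391 to 32830). Within 1 kb of a member there was a KO peak for 98 regions (5.42%) and a KI peak for 187 (10.3%), and at least one of them for 203 (11.2%, 9.85 to 12.8). Within 10 kb at least one lay near 785 members (43.4%). The members nearest to the edge of the rule were those at Atp8b1, 6 bp from a KI peak with a WT score of 52.31, near Slc52a3, 7 bp from a KI peak at 58.46, and inside Fat3, 7 bp from a KO peak at 57.86. Just outside it, WT peaks near Fam177a (88.94) and Tfeb (51.84) overlapped a mutant peak by 1 bp and one near Celf2 (82.8) by 3 bp.

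**Figure D2:**
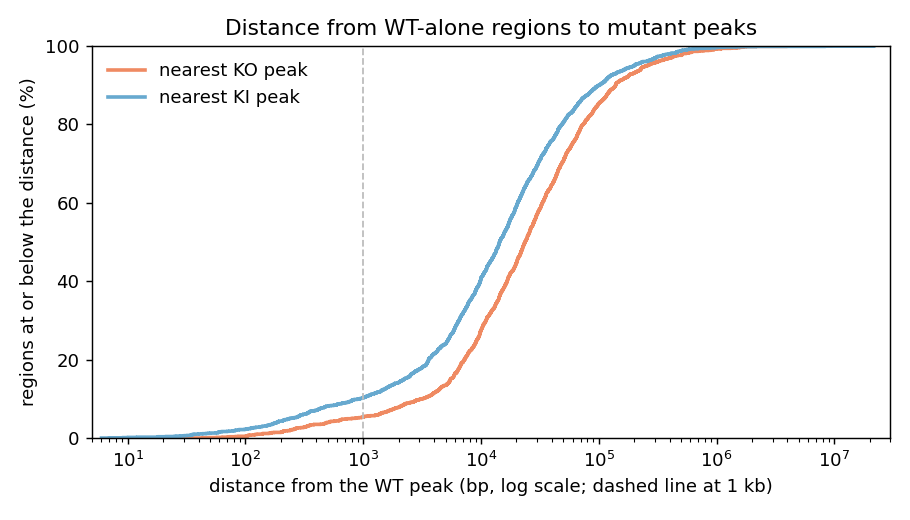
Cumulative share of the 1808 regions (y axis, percent) by distance from the WT peak to the nearest KO or KI peak (x axis, bp on a log scale). The curves cross the dashed line at 1 kb at 5.42% for KO and 10.3% for KI.

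The place of the regions relative to genes was not part of the rule. Of the members, 307 (17.0%, 15.3 to 18.8) lay at a gene end, within 1 kb of either annotated end of a protein-coding gene. A further 727 (40.2%, 38.0 to 42.5) lay in a gene body and 774 (42.8%, 40.6 to 45.1) outside genes. WT peaks in regions of all 3 lists lay at gene ends in 60.8% of cases, a difference of -43.9 percentage points (95% Newcombe interval -45.7 to -41.9). Chromosome 18 aside, the distance to the nearest RefSeq start had a median of 17688 bp for 1754 members, against 252 bp for 12189 peaks of all 3 lists.

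Members scored lower than peaks of all 3 lists, so the shares were also set side by side within the 10 score classes, for classes 5 to 10, which held 40 or more members each. In class 10, 16.2% of 569 members and 37.6% of 619 peaks of all 3 lists lay at gene ends, a difference of -21.5 points (-26.3 to -16.5). In class 9 the shares were 15.7% and 37.1%, in class 8 18.8% and 42.5%, in class 7 15.5% and 42.5%, and in class 6 25.9% and 48.6%. In class 5, with 40 members, the difference was -44.1 points (-50.7 to -30.8). Each of these differences had an interval below 0. The members exceeded the peaks of all 3 lists outside genes in the same 6 classes, by 9.09 points (3.47 to 14.7) in class 9 and 18.7 points (13.2 to 24.0) in class 10. In gene bodies the difference was 2.79 points (-2.63 to 8.21) in class 10 and 12.3 points (6.76 to 17.8) in class 9. The intervals cover counting error over peaks and not the variation between mice.

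**Figure D3:**
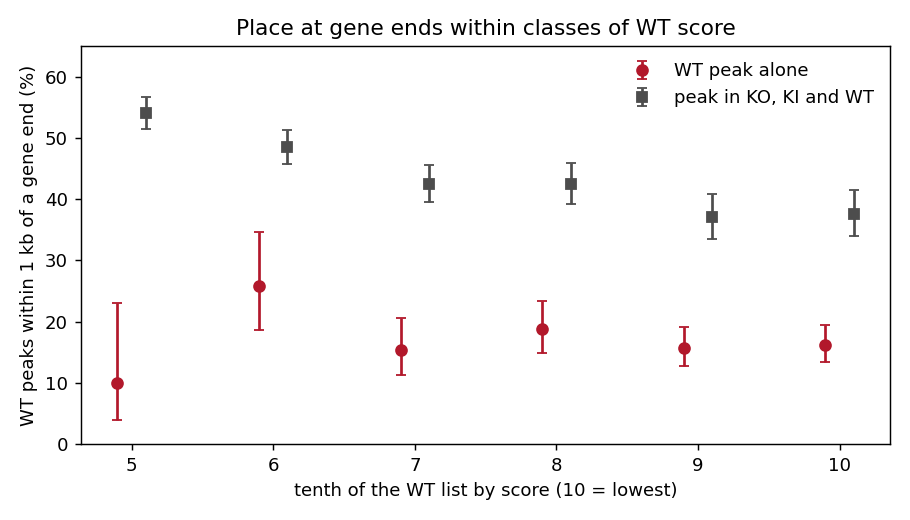
Share of WT peaks within 1 kb of a gene end (y axis, percent) by WT score class (x axis, 10 is the lowest), for regions with a WT peak alone (circles) and regions with a peak in KO, KI and WT (squares), with 95% Wilson intervals. In classes 5 to 10, the ones shown, the circles lie at or below 25.9% and the squares at or above 37.1%.

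The low share at gene ends was not particular to WT. KO-alone peaks lay at gene ends in 12.8% (11.6 to 14.1), and the WT-alone share exceeded it by 4.19 points (2.06 to 6.37). KI-alone peaks did so in 15.6% (14.9 to 16.3), where the difference of 1.39 points had an interval from -0.43 to 3.33. Peaks outside genes made up 42.8% of WT-alone, 43.4% of KO-alone and 40.8% of KI-alone regions. These libraries have lists of different length, and read depth is unknown.

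Members were spread over the chromosomes. They made up 10.4% (9.99 to 10.9) of all WT peaks, between 8.97% on chromosome 11 and 14.0% (11.5 to 16.9) on chromosome 14 among the autosomes, 6.49% (4.56 to 9.16) on X and 3 of 13 peaks on Y. The sex of the animals is not in the labels. Few members were neighbours: 12 lay within 1 kb of another member and 55 (3.04%) within 10 kb. No protein-coding gene lay within 50 kb of 254 members (14.0%, 12.5 to 15.7), against 5.83% (5.43 to 6.25) of WT peaks in regions of all 3 lists.

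The highest-scoring members at gene ends stood at genes of several functions. The highest was at Zfp429, which encodes a zinc finger protein (chr13:67399332-67400035, score 187.29, rank 3102 of 17316). Its nearest KO peak was 23398 bp and its nearest KI peak 21170 bp away. Pars2, the mitochondrial prolyl-tRNA synthetase, followed at 151.86, then Hectd2, a ubiquitin ligase of the HECT family, at 120.17. Cd86, a costimulatory ligand of T cells on antigen-presenting cells, stood at 119.82 and Slc2a4, the insulin-responsive glucose transporter GLUT4, at 115.06. The Slc2a4 region had a KI peak 294 bp away. The gene model LOC100504180 (101.15), Ndufa9, a subunit of respiratory complex I (98.99), and the shared gene end of Pnma1 and Mideas (96.57) came next. Trim30c (95.35), the protease inhibitor gene Serpina3f (93.66), Procr (92.65) and the acyl-CoA thioesterase gene Acot11 (92.32) completed the leading 12.

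Procr encodes the endothelial protein C receptor, a surface marker of HSC. Its WT-alone region covered the start (chr2:155751111-155751399), with the nearest KO peak 7812 bp and the nearest KI peak 7620 bp away. In the gene and 10 kb around it KO had 1 peak (75.7), KI 1 peak (161.8) and WT 2 peaks (78.36 upstream, 92.65 at the start). All 3 lists thus shared the upstream site, and the start had a peak in WT alone. At Cd86, KO had 1 peak and KI 3 peaks, all inside the gene, and the only WT peak was that at the gene end. Gp5, a subunit of the platelet von Willebrand factor receptor, had no KO and no KI peak and 1 WT peak (chr16:30308450-30309367, 92.06).

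Of the highest-scoring members away from gene ends, the first (163.59) lay 7269 bp from Spag9, a scaffold of MAP kinase signalling, over the lncRNA B230206L02Rik whose window is printed above. The second (157.19) lay 1768 bp from Gm4981. Members inside Efcab12 (146.11), C2cd5 (141.47), which takes part in insulin-stimulated GLUT4 transport, and Maea, part of a ubiquitin ligase (126.53), followed. With them came a region on chromosome 13 over the pseudogene Gm7240 with no protein-coding gene within 50 kb (132.62), and one 45483 bp from Smgc (131.12). Others among the leading 12 lay near Slc25a33, a mitochondrial pyrimidine nucleotide carrier (123.62), and Fam107a (120.05), and inside Gnat3 (119.28) and the receptor kinase gene Grk5 (118.17). The Gnat3 region had a KI peak 469 bp away.

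At gene ends, 332 of the 9678 genes with a WT peak there had a WT-alone region, 3.43%. For 259 of the 332 it was the only kind of WT peak at the gene ends, and 211 had neither a KO nor a KI peak at either end. Members were chosen for lacking mutant peaks, so the count of 211 is bound up with the rule and is a description only. The same count over all 9678 genes is not given here, so 211 has no background share to be read against. Mtor itself had no WT-alone region in the gene or within 10 kb: it had 2 KO, 4 KI and 3 WT peaks there.

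Promoter windows under members were poorer in CpG than those under regions of all 3 lists. Members overlapped a window in 9.62% of cases (8.35 to 11.1), against 54.1% (53.2 to 55.0) of WT peaks in regions of all 3 lists. Peaks on chromosome 18, which had no window here, are counted among those without one, so both shares are slightly low. Of the peaks in the lowest 3 score classes, 116 of 1403 members and 613 of 2113 peaks of all 3 lists overlapped one. For each region the window it overlapped most was used. The 174 windows under members had a median GC content of 57.7% (middle 50% from 51.0 to 65.9) and a median of 14 CpG (6 to 23). The 6781 windows under regions of all 3 lists had medians of 62.7% (56.7 to 68.7) and 23 CpG (16 to 30), and the 20479 windows with no peak in any list 48.3% and 4 CpG. Within the lowest 3 score classes the medians were 58.2% and 15.5 CpG under members and 60.3% and 20 CpG under regions of all 3 lists. Windows under KO-alone (58.2%, 16 CpG) and KI-alone regions (58.5%, 15 CpG) were close to those under members.

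**Figure D4:**
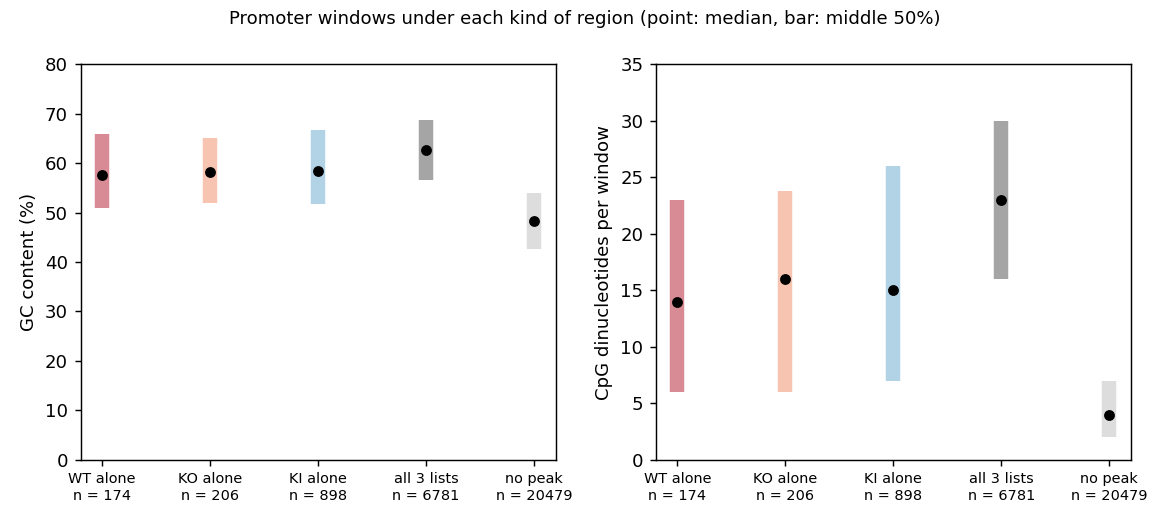
GC content (left, percent) and CpG dinucleotides (right, number per window of 300 bases) of RefSeq promoter windows under regions of each kind, with the median as a point and the middle 50% as a bar. Windows under WT-alone regions (medians 57.7% and 14) lie between those under regions of all 3 lists (62.7% and 23) and those with no peak (48.3% and 4).

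Of 13 motifs searched in the windows, the SP motif GGGCGG differed most. It was in 49.4% of windows under members (42.1 to 56.8), against 72.4% under regions of all 3 lists and 35.7% of all 32851 windows. The difference was -23.0 points (-30.4 to -15.6), and -14.3 points (-24.0 to -4.54) within the lowest 3 score classes. The NFY motif CCAAT was in 27.0% and 42.2% (37.4% of all windows) and the CREB core TGACG in 24.7% and 36.0% (20.8%). The RUNX motif TGTGGT was in 17.8% and 11.3% (16.8%), TATAAA in 9.20% and 5.22% (13.6%) and the YY1 motif AAGATGGC in 1.72% and 5.03% (2.75%). The intervals of these 5 differences excluded 0 over all scores and included it within the lowest 3 score classes. Under KO-alone and KI-alone regions the SP motif was in 51.9% and 53.7% of windows, NFY in 31.1% and 28.4% and the CREB core in 19.9% and 22.05%. RUNX was in 14.1% and 14.7%, TATAAA in 11.2% and 7.8% and YY1 in 0.971% and 2.9%. The lower SP, NFY and CREB core shares were thus not particular to WT. At least 2 copies of the ETS core GGAA were in 82.2% of windows under members and 83.4% under regions of all 3 lists (84.6% of all). The full CREB motif TGACGTCA, which contains the CREB core, was in 2.30% and 3.88% (1.79%). The E-box CACGTG was in 8.62% of windows under members and 11.2% under regions of all 3 lists (7.15% of all). The GATA motif AGATAA was in 6.90% of windows under members and 4.81% under the others (11.2% of all). The AP-1 motif TGANTCA was in 3.45% of windows under members and 3.81% under the others (7.81% of all). The longer NRF1 motif was in 0.575% and 2.30% (0.971%) and the longer IRF motif in 3.45% and 2.51% (3.44%). These are matches of letters on either strand, not sites, and the intervals are not adjusted for the number of motifs. Letters were counted over the whole window, also where the peak covered only part of it, such as 12 bases at Ltbp2.

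Larp1 and Rps6ka4, both with CpG-rich windows, had the member at an annotated start inside the gene. LARP1 binds mRNAs with a terminal oligopyrimidine tract and is a target of mTORC1, and Rps6ka4 encodes MSK2, a kinase that phosphorylates CREB1 and histone H3. In Larp1 and 10 kb around it KO had no peak, KI 1 peak (74.5), which lay 650 bp from the member, and WT the member alone (114.69). In and around Rps6ka4 KO had no peak, KI 1 peak (53.35), 139 bp from the member, and WT the member alone (105.62). Both genes thus had a KI peak next to, but not overlapping, the WT peak.

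Across the 13289 genes with a WT peak in the body or within 10 kb, 1485 (11.2%) had a WT-alone region there. The share was 23.1% for genes over 100 kb and 9.07% for genes under 10 kb. Of 531 genes on 19 lists, 420 had such a WT peak and 46 of them a member. With the 3 lists cut to equal length, which removes the weaker KO and KI peaks, 89 list genes had one and the WT-alone regions numbered 3125, so these counts depend on the unequal list lengths. The counts below are read against the 11.2% of all genes, with no test.

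**Figure D5:**
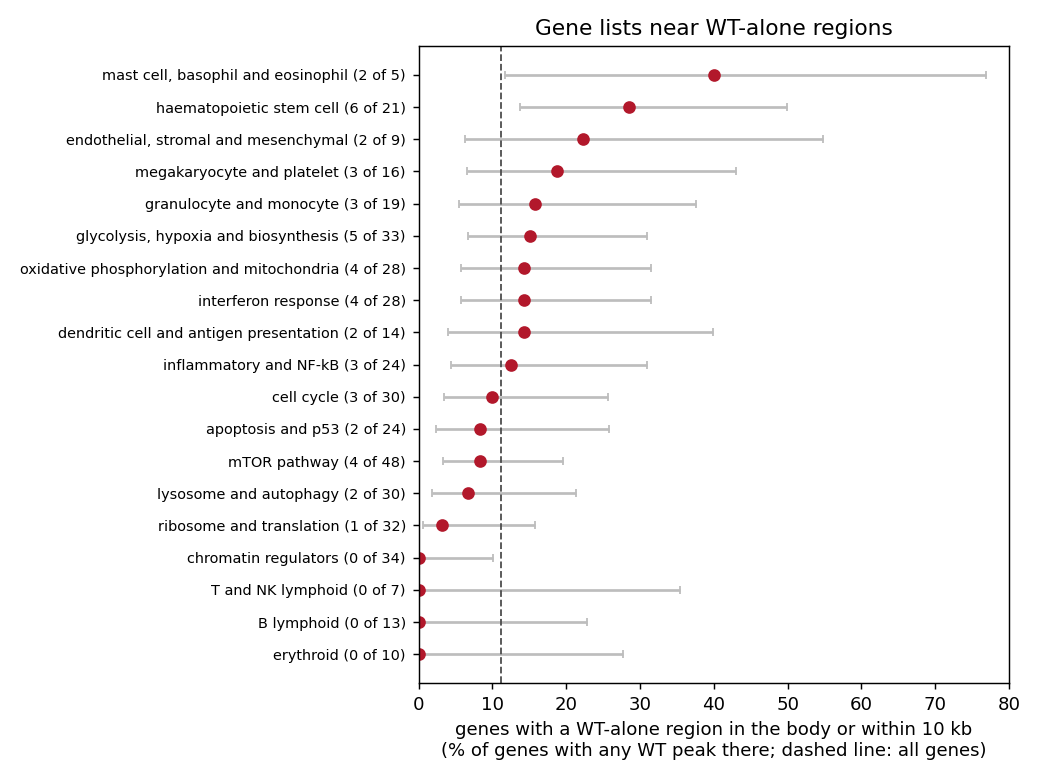
Share of the genes of each list that had a WT-alone region in the body or within 10 kb (x axis, percent of the genes with any WT peak there), with 95% Wilson intervals and the counts beside each name. The dashed line marks 11.2%, the share over all genes. The HSC list had 28.6% (13.8 to 49.96), with 7 of its 21 genes over 100 kb, and the chromatin regulators 0 of 34. The intervals are not adjusted for the 19 lists, and members were chosen from these same peaks, so the shares are a description only.

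Among cell type lists, HSC genes had a member most often in number: 6 of 21 (28.6%, 13.8 to 49.96). Beside Procr, members lay 8717 bp from Meis1 (79.13), a homeobox factor of HSC self-renewal, and 9639 bp from Gfi1b (78.18), a repressor of HSC and erythroid cells. There were 2 inside Mecom (76.25 and 65.6), which encodes EVI1. The remaining HSC genes, named because the count is small, were Fgd5 (75.09, 6253 bp away) and Prdm16 with 2 members (51.37 and 54.35). In these genes and 10 kb around them, Meis1 had 4 KO, 8 KI and 5 WT peaks, Mecom 4, 4 and 4, Prdm16 3, 4 and 4, Procr 1, 1 and 2, Fgd5 1, 1 and 1, and Gfi1b 0, 1 and 1. The KO count of 0 at Gfi1b holds only within 10 kb of the gene, since a KO peak lay 488 bp from its member. HSC genes are long in part, and 7 of the 21 were over 100 kb, 3 of these with a member, against 23.1% of all genes of that length. Counted by peaks, 8 of the 49 WT peaks near HSC genes (16.3%) were members, against 10.4% of all WT peaks.

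The megakaryocyte list had a member at 3 of 16 genes, Gp5 and, with lower scores, Gp9 (62.48, at the end of its neighbour Rab43) and Zfpm1 (50.64). The granulocyte and monocyte list had 3 of 19: Cx3cr1, the fractalkine receptor (86.29, over its start), Cebpb (57.12) and Csf3r, the G-CSF receptor (53.29). On the mast cell list 1 region at Prg2 (63.02) was counted for Prg2 and its neighbour Prg3, 2 of 5. The dendritic cell list had Cd86 and Ciita (59.48), 2 of 14, and the endothelial and stromal list Pecam1 (83.26) and Kdr (58.33), 2 of 9. The erythroid (0 of 10), B lymphoid (0 of 13) and T and NK (0 of 7) lists had none, with upper interval limits of 27.8%, 22.8% and 35.4%.

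The mTOR pathway list had a member at 4 of 48 genes (8.33%, 3.29 to 19.6). They lay 7277 bp from Eif4ebp1 (79.35), the translation repressor that mTORC1 inactivates, and inside Tsc2 (59.51), which restrains mTORC1, Tfeb (57.35), the lysosomal transcription factor, and Akt2 (53.72). Tsc2 had no KO, 2 KI and 1 WT peak, and Akt2 had 1 KO, 2 KI and 2 WT peaks. Of the ribosome and translation genes 1 of 32 had one, 7202 bp from Eef1a1 (85.14), and of the lysosome and autophagy genes 2 of 30. These were Npc1 (58.91) and Uvrag, an activator of the autophagy lipid kinase complex, which had 3 members inside the gene (86.56, 76.59 and 75.17). Uvrag had 1 KO, 1 KI and 4 WT peaks, and the fourth WT peak, at its end, was shared by all lists (273.7 in KO, 502.03 in KI and 389.34 in WT, each on its own list's scale).

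The interferon list had 4 of 28 genes (14.3%, 5.70 to 31.5): Ifi44 (77.85), Ifi47 (67.11), Mx2 (52.67) and Irf1 (50.84). Ifi44, Ifi47 and Mx2 had no KO and no KI peak in the gene or within 10 kb, and the Irf1 region lay 87 bp from a KO and 105 bp from a KI peak. The inflammatory list had 3 of 24, near the double-stranded RNA receptor gene Tlr3 (73.05) and Nfkbia (70.03) and over the start of the chemokine gene Cxcl2 (60.58). Tlr3 and Cxcl2 had no mutant peak within 10 kb.

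Among the other lists, oxidative phosphorylation had 4 of 28 genes, Ndufa9, Ppargc1a (61.5), Atp5b (54.16, inside its neighbour Baz2a) and Ndufb8 (53.38). Glycolysis and biosynthesis had 5 of 33, led by Srebf2 (66.31), Pfkp (58.7) and Ldha (56.72). The region counted for Hif1an was that of Ndufb8. The cell cycle list had 3 of 30, inside Ccnd3 (71.83), Cdk6 (65.18) and Ccnd1 (53.23), and the apoptosis list 2 of 24, Mcl1 (57.19) and Apaf1 (56.82). Chromatin regulators had none of 34, with an upper limit of 10.2%, and their median length of 54.0 kb was above the 23.6 kb of all genes with a WT peak. Several list members lay close to a mutant peak: that of Cebpb was 167 bp from a KO peak, that of Npc1 175 bp from a KO peak, and those of Pfkp, Ndufb8 and Gfi1b 113, 192 and 369 bp from a KI peak.

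A few genes gathered several members: 82 had 2, 8 had 3 and 1 had 4. The one with 4 was Rarb, a retinoic acid receptor gene, with scores of 65.17, 57.56, 56.07 and 54.03, where 1 KO, 6 KI and 5 WT peaks lay in all. In the same order the nearest KI peak was 5404, 4363, 25709 and 757 bp away, and the nearest KO peak 126217, 114869, 116298 and 712 bp. Members also numbered 3 at Itga9, an integrin, Prkcb, a protein kinase C, Rreb1, a RAS-responsive transcription factor, and the chromatin remodeller gene Chd9. These genes and Rarb are long, from 173624 bp (Rreb1) to 651493 bp (Rarb). Itga9 had 1 KO, 4 KI and 4 WT peaks, Prkcb 3, 7 and 4, Rreb1 2, 4 and 4, and Chd9 7, 8 and 9. The 3 at Gm4981 and Duxf3 on chromosome 10 were the same regions. They held the widest members, 2989, 2168 and 1374 bp, at Duxf3, LOC100504180 and Gm4981, and from the closest of them the nearest KO peak was 15244 bp and the nearest KI peak 15526 bp away. The Dux genes form a tandem repeat in the mouse genome, where short reads do not always map to 1 place. The next widest member, of 1315 bp, lay near Smgc.

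Members over small RNA genes were few. At 3 a tRNA gene was annotated, and 2 held a miRNA hairpin. The Mir155 hairpin (chr16:84714140-84714204) lay in a member with a score of 58.57 that had a KO peak 267 bp and a KI peak 9991 bp away. miR-155 acts in immune and haematopoietic cells. Mir6367 lay in a member of 59.27. Their mature forms are printed with the seed, bases 2 to 8, in capitals.
mmu-miR-155-5p: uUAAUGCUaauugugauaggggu
mmu-miR-155-3p: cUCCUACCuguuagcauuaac
mmu-miR-6367: uCCCUGAGacccugguucagga

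An lncRNA gene was annotated under 232 members (12.8%, 11.4 to 14.5), against 14.7% (14.1 to 15.3) of WT peaks in regions of all 3 lists. By symbol, the nearest gene was a Zfp zinc finger gene for 22 members (1.22%, 0.805 to 1.84) and for 2.62% (2.36 to 2.92) of WT peaks in regions of all 3 lists. Solute carrier genes (Slc) were nearest to 35 members (1.94%) and 1.72% of those peaks, and Trim genes to 6 members (0.332%) and 0.263%. Genes with symbols beginning Rp were nearest to 6 members (0.332%) and 0.518% of those peaks. Beside ribosomal protein genes, such symbols include kinase genes such as Rps6ka4. Olfactory receptor genes were nearest to 3 members (0.166%) and 0.128% of those peaks.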

How the data were processed

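Processed values existed for 3 ATAC-seq libraries, 1 per genotype. The authors deposited a peak list per library, with MACS peak names and a score per peak. It is taken as MACS's usual score, 10 times the minus log10 of a p-value, and is used within its own list only. Build mm10 and CASAVA are named per the submitters' processing notes. The aligner, MACS version, duplicate handling, read shift, control and filters are unknown (not given in the sources used here), as is read depth. The lists held 19189 KO, 28391 KI and 17316 WT peaks. They were merged with bedtools 2.31.1 (gap 0), and regions were classed by the lists with a peak.

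Genes were 21889 of the RefSeq GRCm38.p6 table, which gives no strand: the protein-coding genes, and list genes of any class. Regions called outside genes are outside these, and can lie over lncRNA genes or pseudogenes. Promoter windows with strand came from a RefSeq table of 32851 windows, and none on chromosome 18 was used here. Orientation was checked on 1668 overlapping windows of opposite strands, which all matched. All 531 list genes matched. Shares carry Wilson and differences Newcombe 95% intervals (Python 3.11.15, scipy 1.17.1), which cover counting error over peaks only. Region classes, overlaps and distances were tested on simulated data. Members and lists were chosen with earlier results of these data known. Named were the 12 highest-scoring members at gene ends and the 12 elsewhere, up to 4 genes per list, the 8 genes with most members, the 5 widest members and those at the edge of the rule, by a written rule. Exceptions are marked. Some members that the rule names are not reported here.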

Additional observations from a re-analysis of the deposited data

How the results depend on the processing

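With KO, KI and WT lists of equal length, WT-alone regions numbered 3125, 19.7% of them lay at gene ends, 64.1% were in the lowest of 4 WT score classes, and 89 list genes had one. With a WT score of at least 75 there were 284, with 20.8% at gene ends, and of at least 100 there were 40, with 15.0%. The share at gene ends was 15.0% with a merge gap of 1000 bp, and 13.9% and 22.8% with gene-end windows of 500 and 2500 bp. Counting a WT peak as shared only where 50% was covered gave 64.9% in the lowest of 4 classes. With a window of 50 kb 116 list genes had a member. Of the other values, 17 on the main results stayed within 1.5 times the main count or within a range of the main value. That range was the interval of the main share, or for median GC content the middle 50% of the main windows (51.0 to 65.9). Of the motif shares and other single values 15 stayed within these limits and 6 did not. Of the 87 named members, 73 were members with a gap of 1000 bp, and 39 and 18 with a score of at least 75 and 100. Peak lists of unknown depth limit all of this, with 1 library per genotype. The midpoint of the peak and the check of named members were chosen after seeing the data. No paired analysis was possible because each genotype had 1 ATAC-seq library.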
